A study of Homo sapiens with 8 samples.

Results

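Serine and one-carbon enzymes were described in A673 cells, an established patient-derived Ewing Sarcoma cell line, treated with JIB-04, an inhibitor of Jumonji-domain histone demethylases. The 9 enzymes were PHGDH, PSAT1, PSPH, SHMT1, SHMT2, MTHFD1, MTHFD2, MTHFD1L and ALDH1L2, taken by gene symbol out of 65975 gene identifiers in the expression table. Each symbol had a single entry, and the enzymes were chosen with earlier results of these data known. The JIB-04 group comprised 4 RNA-seq libraries of cells given 2 μM JIB-04 (the E isomer) for 36 hours, and the vehicle group comprised 4 libraries of cells given DMSO for 36 hours. All 8 libraries came from the same line, grown in DMEM with serum, non-essential amino acids and pyruvate, a medium that supplies serine and glycine from outside the cell. The methods state that each treatment was given in quadruplicate, without saying whether these were cultures grown apart, and the p-values here reflect the spread among these samples alone, which may be technical in part. In bulk RNA a change per cell and a change in the mix of cells cannot be told apart.

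Cells make serine from the glycolytic intermediate phosphoglycerate in a short chain of reactions. PHGDH oxidizes phosphoglycerate, PSAT1 transfers an amino group from glutamate, which releases α-ketoglutarate, and PSPH removes the phosphate to leave serine. The serine hydroxymethyltransferases SHMT1, in the cytosol, and SHMT2, in mitochondria, then split serine into glycine and a one-carbon unit carried on tetrahydrofolate. In mitochondria MTHFD2 oxidizes that unit, MTHFD1L releases it as formate, and ALDH1L2 can instead oxidize it to CO2 with production of NADPH, whereas in the cytosol the trifunctional enzyme MTHFD1 takes up formate again for purine and thymidylate synthesis. The pathway is known for feeding nucleotide synthesis in proliferating cells, and several of its genes are known targets of the stress factor ATF4.

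Levels were FPKM, fragment numbers scaled to transcript length and to library size, which allows levels of different genes to be compared. They summed to 1175407 to 1237186 in the JIB-04 libraries and to 1346289 to 1370436 in the vehicle libraries. Messenger RNAs of the mitochondrial genome took 3.60% to 4.33% of the FPKM with JIB-04 and 9.60% to 10.2% with vehicle. Steps between the lowest FPKM gave each library's depth relative to vehicle replicate 1, which was 0.766 to 0.926 in the JIB-04 libraries and 0.822 to 0.954 in the other vehicle libraries. Of 8 Ewing Sarcoma markers all were expressed, among them FLI1 at 71.3 ± 2.17 FPKM with JIB-04 and 60.4 ± 2.10 FPKM with vehicle and NKX2-2 at 88.9 ± 12.03 and 151 ± 8.33 FPKM (mean ± SD, n = 4 libraries per group). Of 8 markers of blood, epithelial, endothelial, muscle, liver and glial cells, none reached a mean of 1 FPKM over the 8 libraries (highest group mean 1.29 FPKM, PECAM1 with JIB-04). The part of the mitochondrial RNA share in the results was not tested. The 17460 genes whose mean over the 8 libraries reached 1 FPKM were tested between JIB-04 and vehicle with limma, after adding 0.5 to the FPKM and taking log2, and calls were made at 0.05 after Benjamini-Hochberg adjustment. All log2 fold changes carry this added 0.5, which understates the change of low genes.

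The promoters of the members were read because 6 of them fell together while another, MTHFD2, went the other way. Of the 9 members, 6 had a promoter sequence in the RefSeq table (GRCh38.p14), and the 250 bases before the start of each were searched on both strands. The pentamer CCAAT, the box bound by NF-Y, occurred at least once in all 6 of these windows (PHGDH, PSAT1, SHMT1, MTHFD1, MTHFD2 and MTHFD1L), against 33.0% of 27305 promoter windows of the same length. It occurred in the promoter of MTHFD2 as well as in those of PHGDH, PSAT1, SHMT1, MTHFD1 and MTHFD1L, which were lower, and SHMT2, also lower, was not searched. This motif was added to the search after the windows had been read, so its share among the 6 is a description. The 27305 windows were not limited to expressed genes. TGATGNAA, the composite site of ATF4 and C/EBP proteins, was found only in MTHFD1L among the 6 (TGATGCAA, from 129 to 122 bases before the start), against 3.19% of all windows. CACGTG, the E-box, was found in MTHFD1 and MTHFD1L, against 6.49% of all windows, and TGACNNNGC, the antioxidant response element, in none of the 6, against 3013 of 27305 windows (11%). No motif overlapped another in these windows. The search did not leave out exon bases, in the members or in the 27305 windows. GENCODE annotates the whole MTHFD1 window as exon of the gene. The longest exon-free stretch was 31 bases in PHGDH and 98 bases in MTHFD1L, and all matches of PHGDH and MTHFD1L lay outside it. Shown here are 3 windows without the bases that GENCODE annotates as exon, for the member that rose and for a serine synthesis and a serine-cleaving enzyme that fell. Letters in capitals mark CCAAT or its reverse complement ATTGG, read 5′ to 3′ on the strand of the gene.
MTHFD2 (chr2:74198365-74198561, + strand): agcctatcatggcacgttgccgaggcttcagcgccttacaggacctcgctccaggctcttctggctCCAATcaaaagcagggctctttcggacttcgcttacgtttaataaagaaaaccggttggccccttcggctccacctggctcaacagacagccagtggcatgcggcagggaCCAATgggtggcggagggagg
PSAT1 (chr9:78296875-78297124, + strand): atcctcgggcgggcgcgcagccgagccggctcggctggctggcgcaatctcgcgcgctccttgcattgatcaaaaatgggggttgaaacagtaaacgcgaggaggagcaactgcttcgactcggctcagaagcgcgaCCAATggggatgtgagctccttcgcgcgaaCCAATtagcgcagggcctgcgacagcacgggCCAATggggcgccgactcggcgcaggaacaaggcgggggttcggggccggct
SHMT1 (chr17:18363564-18363800, - strand): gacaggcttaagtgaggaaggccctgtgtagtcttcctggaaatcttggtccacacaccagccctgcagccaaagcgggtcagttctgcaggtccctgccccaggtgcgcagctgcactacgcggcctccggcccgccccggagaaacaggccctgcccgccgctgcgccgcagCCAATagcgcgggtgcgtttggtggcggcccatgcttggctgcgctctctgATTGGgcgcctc
A match is a description of these letters and was not tested as a site.

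With JIB-04 6 of the 9 enzymes were lower and 1, MTHFD2, was higher, whereas PSPH and ALDH1L2 did not pass the test. Of all genes tested, 38.0% were called lower and 34.2% higher, 72.2% in either direction. The median log2 fold change of the 9 members was -0.66, beside -0.066 over all 17460 genes. In 7 members the groups were apart, with all JIB-04 libraries below all vehicle libraries in 6 and above them in 1, where 35.4% of all genes lay wholly below and 31.9% wholly above. Lower by at least 2-fold were 3 members, PHGDH, SHMT1 and MTHFD1L, beside 11.8% of all genes, and no member was higher by as much, beside 13.1% of all genes. When FPKM were rescaled to TPM the median of all genes moved up by 0.15, the same 7 members were called in the same directions, and PSPH, which was not called, turned from -0.13 to 0.029.

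**Figure D1:**
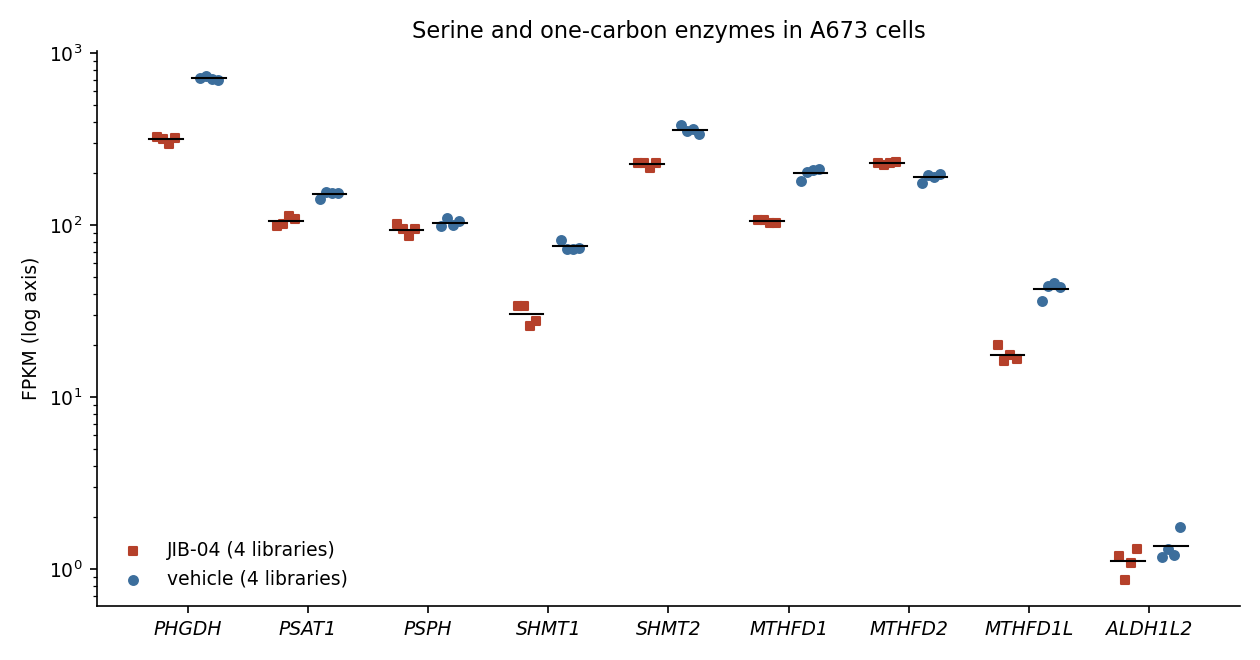
FPKM of the 9 enzymes on a log axis, with JIB-04 libraries (squares) left of vehicle libraries (circles) and a horizontal bar at each group mean (n = 4 libraries per group). The groups are apart in all but PSPH and ALDH1L2, MTHFD2 alone lies higher with JIB-04, and ALDH1L2 lies near 1 FPKM in both groups.

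PHGDH, which commits phosphoglycerate to serine, had the highest level of the 9 in either group. PHGDH (ENSG00000092621, chromosome 1, 119648411 to 119744226 on GRCh38) stood at 327, 315, 299 and 324 FPKM in the JIB-04 libraries, against 721, 738, 712 and 696 FPKM in the vehicle libraries. Every JIB-04 library was thus well below every vehicle library. PHGDH averaged 316 ± 12.8 FPKM with JIB-04 and 717 ± 17.7 FPKM with vehicle (mean ± SD, n = 4 per group), 2.27-fold lower with JIB-04 (log2 fold change by limma -1.18 ± 0.04 SE, adjusted p = 1.37e-08).

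The next enzymes of serine synthesis had log2 fold changes nearer to 0, a difference from PHGDH that was not tested. PSAT1 (ENSG00000135069, chromosome 9, 78297143 to 78330093) stood at 99.2, 101, 113 and 109 FPKM with JIB-04, against 142, 156, 153 and 154 FPKM with vehicle. The groups did not overlap, and PSAT1 was 1.43-fold lower with JIB-04 (log2 fold change by limma -0.52 ± 0.05 SE, adjusted p = 1.99e-05). PSPH (ENSG00000146733, chromosome 7, 56011051 to 56051604) stood at 102, 94.7, 86.1 and 94.9 FPKM with JIB-04, against 98.8, 110, 99.9 and 106 FPKM with vehicle. JIB-04 replicate 1 lay among the vehicle values, so the groups overlapped. PSPH did not pass (log2 fold change -0.13, 95% interval -0.27 to 0.0017, limma adjusted p = 0.0705). Without JIB-04 replicate 1 the difference was -0.17 and passed (limma adjusted p = 0.0294), and with the FPKM of the pseudogene PSPHP1 added it was -0.12 and passed (limma adjusted p = 0.0361), where its adjusted p ran up to 0.63 after rescaling to TPM.

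Both serine hydroxymethyltransferases fell, the cytosolic enzyme more than the mitochondrial one. SHMT1 (ENSG00000176974, chromosome 17, 18327860 to 18363563) stood at 33.8, 34.1, 26.1 and 27.7 FPKM with JIB-04, against 82.2, 72.8, 72.5 and 73.9 FPKM with vehicle. Its highest JIB-04 library was less than every vehicle library, and SHMT1 was 2.48-fold lower with JIB-04 (log2 fold change by limma -1.30 ± 0.09 SE, adjusted p = 1.63e-06). SHMT2 (ENSG00000182199, chromosome 12, 57229327 to 57234935) stood at 230, 231, 216 and 230 FPKM with JIB-04, against 381, 353, 365 and 338 FPKM with vehicle. SHMT2 was 1.59-fold lower with JIB-04, again without overlap (log2 fold change by limma -0.66 ± 0.04 SE, adjusted p = 9.65e-07). SMCR8, on the opposite strand, shares the end of the SHMT1 gene and averaged 45.2 FPKM with JIB-04 and 20.6 FPKM with vehicle, and no source used here says whether the authors' counting used strand.

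Of the enzymes that carry the unit onward, the mitochondrial MTHFD2 rose, and the cytosolic MTHFD1 and the mitochondrial MTHFD1L fell. MTHFD1 (ENSG00000100714, chromosome 14, 64388031 to 64463457), the cytosolic trifunctional enzyme, stood at 108, 107, 103 and 103 FPKM with JIB-04, against 182, 204, 210 and 213 FPKM with vehicle. It was 1.92-fold lower with JIB-04 and the groups did not overlap (log2 fold change by limma -0.93 ± 0.05 SE, adjusted p = 3.93e-07). MTHFD2 (ENSG00000065911, chromosome 2, 74198562 to 74217565), the mitochondrial dehydrogenase and cyclohydrolase, stood at 230, 225, 231 and 234 FPKM with JIB-04, against 177, 195, 191 and 198 FPKM with vehicle. Every JIB-04 library was above every vehicle library, by a small margin, and MTHFD2 was 1.21-fold higher (log2 fold change by limma 0.28 ± 0.04 SE, adjusted p = 0.000287). Rescaled to TPM the log2 fold change of MTHFD2 was 0.44. MTHFD1L (ENSG00000120254, chromosome 6, 150865549 to 151101887), the mitochondrial synthetase that releases formate, stood at 20.1, 16.2, 17.5 and 16.8 FPKM with JIB-04, against 36.3, 44.5, 46.1 and 43.9 FPKM with vehicle. It was 2.42-fold lower with JIB-04 (log2 fold change by limma -1.25 ± 0.09 SE, adjusted p = 1.89e-06). MTHFD1L, which acts after MTHFD2 in the same compartment, thus fell where MTHFD2 rose. A processed pseudogene, AL133260.1, lies within the MTHFD1L gene on the same strand and averaged 36.1 FPKM with JIB-04 and 48.0 FPKM with vehicle, and ZBTB25 overlaps MTHFD1 on the opposite strand at 4.33 FPKM with JIB-04 and 7.10 FPKM with vehicle.

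ALDH1L2, the mitochondrial enzyme that oxidizes the formyl group to CO2, was the lowest of the 9. ALDH1L2 (ENSG00000136010, chromosome 12, 105019784 to 105084577) stood at 1.197, 0.860, 1.08 and 1.31 FPKM with JIB-04, against 1.18, 1.32, 1.204 and 1.75 FPKM with vehicle. The groups overlapped and no difference was detectable at this level (log2 fold change -0.20, 95% interval -0.57 to 0.16, limma adjusted p = 0.282), close to the filter of 1 FPKM. Its log2 fold change was -0.11 without vehicle replicate 4, -0.13 without JIB-04 replicate 2, -0.081 after rescaling to TPM and -0.34 after quantile scaling, none past the threshold. C12orf45 overlaps it on the opposite strand at 43.1 FPKM with JIB-04 and 48.8 FPKM with vehicle.

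**Figure D2:**
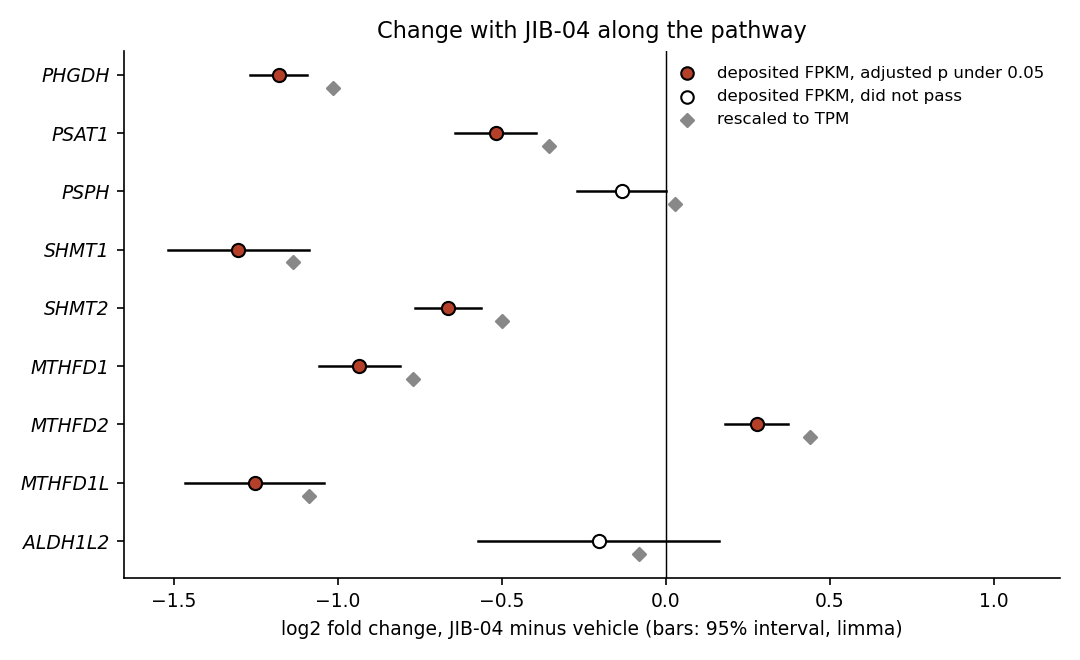
Log2 fold change of each enzyme, JIB-04 minus vehicle, from the top of serine synthesis downward (circles, with 95% intervals from limma, filled where the adjusted p is under 0.05). Grey diamonds give the value after rescaling to TPM, which moves every enzyme to the right and takes PSPH from -0.13 to 0.029 but turns no other.

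Pseudogene copies listed in the table could share reads with some members. The 7 MTHFD2 pseudogene entries summed to 42.1 FPKM with JIB-04 and 36.1 FPKM with vehicle, of which MTHFD2P7 gave 30.2 and 26.1 FPKM. The 4 PSAT1 entries summed to 24.6 FPKM with JIB-04 and 39.8 FPKM with vehicle, and MTHFD1P1 averaged 14.2 FPKM with JIB-04 and 30.3 FPKM with vehicle. The sums were higher with JIB-04 for MTHFD2 and lower for PSAT1 and MTHFD1, as were the parent genes, and reads of a parent and of its copy cannot be told apart here. With all pseudogene entries added to their parents, an alternative chosen after the data had been seen, the log2 fold changes were 0.27 for MTHFD2, -0.55 for PSAT1 and -0.95 for MTHFD1.

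The order of the enzymes by level changed around MTHFD2. With JIB-04 the order of mean FPKM was PHGDH, MTHFD2, SHMT2, PSAT1, MTHFD1, PSPH, SHMT1, MTHFD1L and ALDH1L2, and with vehicle it was PHGDH, SHMT2, MTHFD1, MTHFD2, PSAT1, PSPH, SHMT1, MTHFD1L and ALDH1L2. With JIB-04 the ranges of MTHFD2 and SHMT2 overlapped, as did those of PSAT1 and MTHFD1, and with vehicle those of MTHFD1 and MTHFD2. All other neighbours were apart in all libraries. The neighbour whose range MTHFD2 overlapped was thus SHMT2 with JIB-04 and MTHFD1 with vehicle.

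Ratios of FPKM within a library do not depend on how that library was scaled, and 5 pairs of paralogs were compared. MTHFD2 over MTHFD1 was 2.13, 2.10, 2.23 and 2.27 with JIB-04, against 0.973, 0.956, 0.906 and 0.930 with vehicle. The mitochondrial enzyme thus had the higher level in every JIB-04 library and the lower level in every vehicle library, a 2.32-fold shift of the ratio. SHMT2 over SHMT1 was 6.80, 6.76, 8.28 and 8.29 with JIB-04, against 4.63, 4.85, 5.04 and 4.58 with vehicle, a 1.57-fold shift. MTHFD1L over MTHFD1 went the other way, at 0.186, 0.151, 0.169 and 0.163 with JIB-04, against 0.1998, 0.219, 0.219 and 0.206 with vehicle, or 0.791 times the vehicle ratio. The ratio of the mitochondrial to the cytosolic enzyme was thus higher with JIB-04 for the hydroxymethyltransferases and for MTHFD2 and lower for MTHFD1L.

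ALDH1L2 over ALDH1L1, its cytosolic counterpart, was 0.468, 0.285, 0.370 and 0.336 with JIB-04, against 0.0377, 0.0442, 0.0400 and 0.0613 with vehicle. That 7.99-fold shift came with ALDH1L1 at 3.10 ± 0.575 FPKM with JIB-04 and 29.9 ± 1.11 FPKM with vehicle (n = 4 per group). MTHFD2 over its weaker paralog MTHFD2L was 50.7, 48.8, 30.2 and 47.6 with JIB-04, against 29.2, 29.2, 42.3 and 23.2 with vehicle, and the groups overlapped. By an exact two-sided permutation test of the log2 ratio, adjusted over the 5 pairs, the other 4 pairs differed at p = 0.0357 (unadjusted exact p = 0.0286, the smallest that 4 libraries against 4 allow) and MTHFD2 over MTHFD2L did not pass at p = 0.0571. The adjusted value can go no lower when 4 of 5 pairs reach that limit. For MTHFD2 over MTHFD1 this outcome was fixed by the levels given above, since MTHFD2 lay wholly higher and MTHFD1 wholly lower. It is no separate support for either change.

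**Figure D3:**
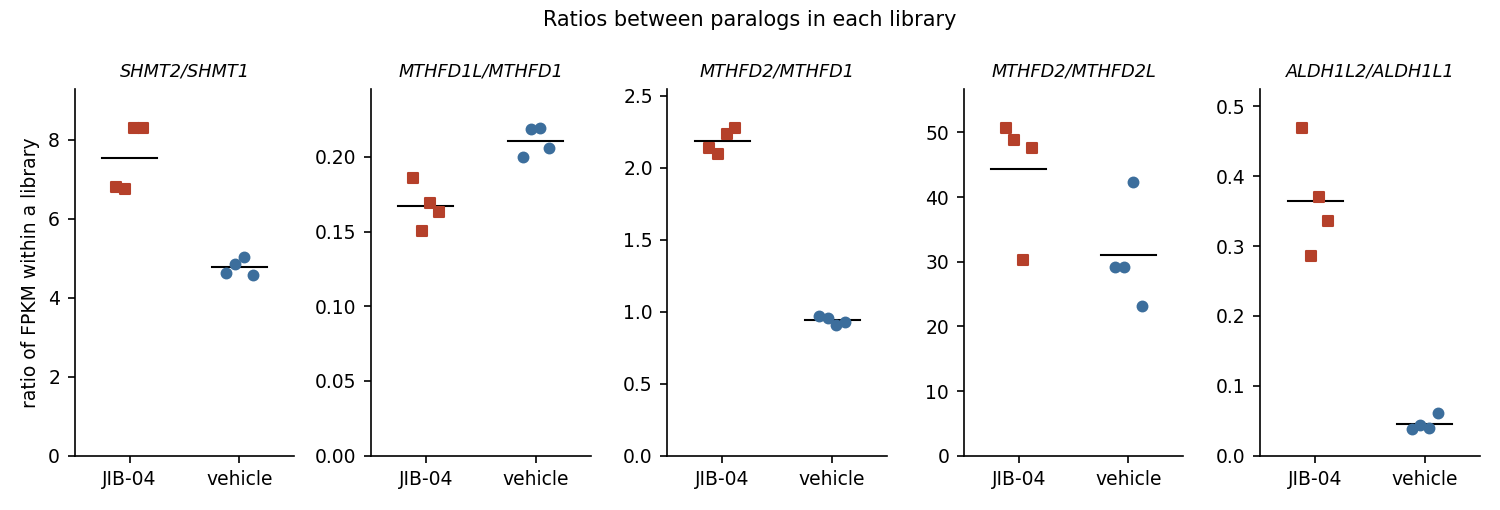
Ratio of FPKM between 2 paralogs in each library, with JIB-04 (squares) left of vehicle (circles) and bars at the group means, each panel on its own axis from 0. JIB-04 libraries lie above vehicle libraries for SHMT2/SHMT1, MTHFD2/MTHFD1 and ALDH1L2/ALDH1L1 and below them for MTHFD1L/MTHFD1, and they overlap for MTHFD2/MTHFD2L.

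The partners of these enzymes in the folate cycle were mostly lower as well. Of 12 listed and tested, 7 were lower, 3 were higher, and MTHFD2L and GGH did not pass, with a median log2 fold change of -1.07. Among all genes tested 38.0% were called lower and 34.2% higher, with a median of -0.066. The same shares stand beside the counts of the lists that follow. ALDH1L1, which oxidizes the formyl group in the cytosol, stood at 2.56, 3.02, 2.92 and 3.91 FPKM with JIB-04, against 31.2, 29.8, 30.1 and 28.5 FPKM with vehicle. No other gene in the list fell as far (9.65-fold lower, log2 fold change by limma -3.09 ± 0.11 SE, adjusted p = 2.1e-08). Its antisense neighbour ALDH1L1-AS2 averaged 0.599 FPKM with JIB-04 and 9.28 FPKM with vehicle, and reads of the pair cannot be told apart without strand.

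TYMS, which makes thymidylate with a one-carbon unit from folate, fell with a log2 fold change of -1.20. MTFMT, which formylates the initiator tRNA of mitochondria with the formyl unit, averaged 13.6 ± 0.421 FPKM with JIB-04 and 36.9 ± 1.25 FPKM with vehicle (log2 fold change by limma -1.40 ± 0.05 SE, adjusted p = 2.88e-08). Against this direction went, among others, SLC25A32, the carrier that brings folate into mitochondria, and FTCD, a histidine-degrading enzyme, both named after their values were seen. FTCD averaged under 1 FPKM with vehicle and passed the filter through its JIB-04 level, so its place among the 3 that were higher is given as a description. SLC25A32 averaged 37.6 ± 1.62 FPKM with JIB-04 and 16.99 ± 1.45 FPKM with vehicle, and FTCD averaged 2.83 ± 0.980 FPKM with JIB-04 and 0.896 ± 0.461 FPKM with vehicle (n = 4 per group).

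Genes that move serine or consume it went both ways. Of 12 listed, 9 were tested, of which 5 were lower and 4 higher (median log2 fold change -0.23), and DLD and SFXN1 no longer passed after rescaling to TPM, which left 3 lower, and DLD did not pass after median-ratio scaling either (limma adjusted p = 0.0699), which left 4 lower. GCSH, the carrier protein of glycine cleavage, averaged 1.48 ± 0.435 FPKM with JIB-04 and 7.55 ± 1.14 FPKM with vehicle (log2 fold change by limma -2.03 ± 0.17 SE, adjusted p = 3.71e-06). GLDC, AMT and SDS had a mean under 1 FPKM over the 8 libraries and were not tested. GLDC averaged 1.08 FPKM with JIB-04 and 0.408 FPKM with vehicle, and AMT averaged 0.473 FPKM with JIB-04 and 1.16 FPKM with vehicle. SFXN3, a paralog of the mitochondrial serine transporter SFXN1, averaged 31.6 ± 2.92 FPKM with JIB-04 and 7.35 ± 0.622 FPKM with vehicle (log2 fold change by limma 2.03 ± 0.09 SE, adjusted p = 5.59e-08). SPTLC1, a subunit of the enzyme that joins serine to palmitate for sphingolipids, rose with a log2 fold change of 0.79, and SLC1A4, a transporter of serine and other neutral amino acids, fell with one of -0.30.

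The methionine cycle, which takes one-carbon units for methylation, and transsulfuration, which uses serine to make cysteine, had 5 genes lower and 2 higher of 7 tested among 9 listed, where BHMT and GNMT were too low to test (median log2 fold change -0.49). MAT2A, which makes the methyl donor S-adenosylmethionine, averaged 228 ± 9.002 FPKM with JIB-04 and 386 ± 8.98 FPKM with vehicle (log2 fold change by limma -0.76 ± 0.04 SE, adjusted p = 1.74e-07). AHCY, which clears the product of methylation, fell with a log2 fold change of -0.83. The enzymes of transsulfuration diverged, CBS, which joins serine and homocysteine, with a log2 fold change of -2.03 and CTH, which releases cysteine, with one of 1.00. CBS has a second, near-identical entry in the table, so its reads may be split. Of 6 genes of de novo purine synthesis, which takes up formyl units, ADSL, ATIC, PFAS and GART fell with log2 fold changes of -1.03, -0.66, -0.88 and -0.22, PPAT was the only one of the 5 tested that was higher, and PAICS was left out because of placeholder values. GART no longer passed after rescaling to TPM (limma adjusted p = 0.253), and passed under median-ratio and quantile scaling (limma adjusted p = 0.012 and 0.00507).

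**Figure D4:**
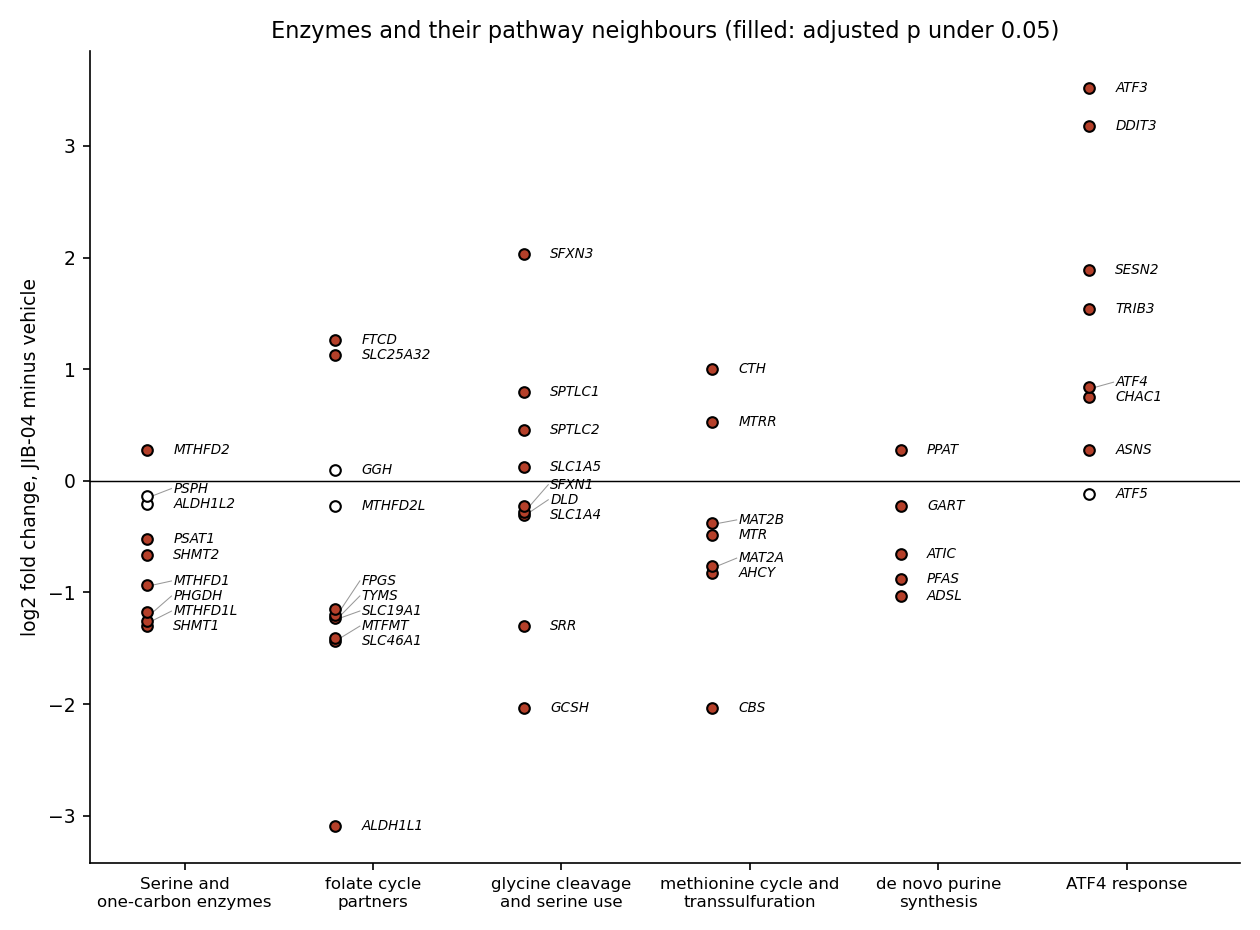
Log2 fold change, JIB-04 minus vehicle, of the 9 enzymes (left) and of tested genes of 5 related lists (not every folate partner is drawn), filled where the limma adjusted p is under 0.05. Most folate partners lie below 0 with the enzymes, ALDH1L1 lowest at -3.09, and the ATF4 response genes lie above 0 except ATF5, which together with PSPH changes sign after rescaling to TPM.

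Most genes listed here for the ATF4 response, which in other settings includes several of these enzymes, were higher. Of 8 tested, 7 were higher, none was lower and ATF5 did not pass (median log2 fold change 1.19), where 34.2% of all genes tested were called higher. ATF4 stood at 1215, 1258, 1227 and 1255 FPKM with JIB-04, against 670, 719, 710 and 675 FPKM with vehicle (log2 fold change by limma 0.84 ± 0.03 SE, adjusted p = 4.35e-08). DDIT3 and ATF3, transcription factors of the stress response, had log2 fold changes of 3.18 and 3.52, and SESN2 had 1.89. The asparagine synthetase ASNS, TRIB3 and CHAC1, named after their values were seen, had 0.28, 1.54 and 0.75. In the libraries in which ATF4 was higher, PHGDH, PSAT1, SHMT1, SHMT2, MTHFD1 and MTHFD1L were lower and MTHFD2 was higher, and PSPH and ALDH1L2 did not pass. ATF4 was measured here as mRNA only, and a link between ATF4 and the members was not tested.

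Across the 8 libraries the log2 levels of many genes followed those of the members, since the libraries fall into 2 treatment groups. The genes most like PHGDH were MMAB, ELAVL1 and PRR3 (Pearson r 0.9997, 0.9995 and 0.9994), and those most like MTHFD2 were ZSCAN12, SF3B6 and KIAA1468 (r 0.998, 0.997 and 0.996), among 12578 genes that averaged 5 FPKM or more. Of these genes 4002 had r above 0.9 with PHGDH and 3051 with MTHFD2, and these r describe libraries that share 2 treatments.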

How the data were processed

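A673 cells treated with JIB-04 or vehicle were profiled by RNA-seq, 4 libraries per group. The authors aligned directional single-end reads to GRCh38 with GSNAP and SAMtools and deposited FPKM calculated with Cufflinks. The labels and the methods differ in read length. No source used here names the annotation or the strand setting. FPKM were used as deposited. Of 66095 entries, those of 117 repeated identifiers were summed, and 13 genes with a placeholder value were left out. Group comparisons used limma (3.58.1, under R 4.3.3) with moderated variances that follow a trend on level, on log2(FPKM + 0.5), a choice that replaced the study's analysis of variance because levels span orders of magnitude. Ratios were tested by exact permutation. The members and lists were chosen with earlier results of these data known. Named genes were the members, up to 4 genes per list with the smallest adjusted p, MTHFD2L and ALDH1L1 as paralogs of members, and for PHGDH and MTHFD2 the 3 genes with the highest correlation. Other list genes named in the text, among them SLC25A32, FTCD, PPAT, SFXN1, DLD, ASNS, TRIB3 and CHAC1, fall outside this rule. Some of them were named after their values were seen. Values of some folate cycle partners, which the list counts include, are not reported here. Absolute depth is unknown, so precision rests on the spread between libraries. The fit was tested on simulated data in which far fewer genes changed than were called here. That test does not cover the setting of these data. Alternatives were pseudocounts of 0.1 and 1, no filter or a filter of 5 FPKM, TPM, median-ratio and quantile scaling, analysis of variance, limma without a trend, a replicate block, leaving out each library, and adding pseudogene entries. GENCODE 29 gave positions and RefSeq gave promoters. Tables and figures were made with pandas 2.3.3 and matplotlib 3.10.9 under Python 3.11.15, and exact tests enumerated every split of the libraries with numpy 2.4.6.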

Additional observations from a re-analysis of the deposited data

Results flagged for a closer look

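In 70 groups of 4 libraries, over the members, the named pathway genes and the 5 ratios, a library far from the other 3 was looked for by Dixon's criterion, which chance meets in about 1 in 20 groups. Among the members, SHMT2 in JIB-04 replicate 3 lay below the others, at 216 FPKM against 229.5 to 231 FPKM (gap over range 0.911), and SHMT1 in vehicle replicate 1 lay above the others, at 82.2 FPKM against 72.5 to 73.9 FPKM (0.854). MTHFD2L stood apart in JIB-04 replicate 3 at 7.64 FPKM against 4.55 to 4.92 FPKM (0.881), and with it the ratio of MTHFD2 to MTHFD2L, at 30.2 against 47.6 to 50.7 (0.851). Among the pathway genes the same was seen for ATF3 in vehicle replicate 3 (0.976), GCSH in vehicle replicate 1 (0.839), PFAS in vehicle replicate 4 (0.844) and SPTLC1 in vehicle replicate 4 (0.897).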

How the results depend on the processing

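The 6 falls and the rise among the members kept their direction and stayed past the threshold in every alternative run, and ALDH1L2, which a filter of 5 FPKM removes, stayed short of it. PSPH was 0.029 after rescaling to TPM, -0.12 and past the threshold with pseudogene entries added, and -0.17 to -0.091 with 1 library left out, past the threshold without JIB-04 replicate 1, and the cause was not tested. After rescaling to TPM the genes of glycine cleavage and serine use called lower numbered 3, for which the cause was not tested, and of all genes 7061 were called higher and 5424 lower, against 5964 and 6640 in the deposited FPKM. Genes of glycine cleavage and serine use called higher numbered 3, against 4, in limma without a trend and without JIB-04 replicate 1 or 2 or vehicle replicate 2 or 4. With no filter 8223 genes were called higher and 7293 lower. With the replicate number as a block the member counts were again 6 lower and 1 higher. Same-numbered libraries correlated at -0.058 to 0.082 in their deviations, and nothing in the labels pairs them. Within replicate numbers the log2 ratio differences were 0.65 for SHMT2/SHMT1, -0.34 for MTHFD1L/MTHFD1, 1.215 for MTHFD2/MTHFD1 and 2.998 for ALDH1L2/ALDH1L1, each with an exact sign-flip p of 0.125, the smallest that 4 pairs allow. Without any 1 library they were 0.60 to 0.70, -0.39 to -0.29, 1.195 to 1.23 and 2.87 to 3.15, with no test. Levels near 1 FPKM, such as ALDH1L2, limit what can be seen.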
